A study of Mus musculus with 6 samples.

Results

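The proteins of the cytosolic ribosome were followed as messenger RNA in gastrocnemius, a hindlimb muscle, of 8-week-old male mice. Every gene of the deposited count table with values was taken whose symbol starts with Rpl (large subunit) or Rps (small subunit) and a digit. S6 kinase symbols and symbols marked as pseudogenes were left out, and a mean count of at least 10 over the 6 libraries was required. This gave 81 genes of the 17034 with values, 49 with an Rpl and 32 with an Rps symbol. Of these, 73 are standard ribosomal proteins, 43 of the large and 30 of the small subunit. The other 8 are paralogs or other symbols that the spelling of the name brings in: Rpl3l, Rpl7l1, Rpl22l1, Rpl36al, Rpl32l, Rpl37rt, Rps27l and Rps19bp1. All 81 passed the filter on low counts and were tested.

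The WT group held 3 libraries of littermates that carried the floxed alleles of the thyroid hormone receptor alpha gene (Thra fl/fl) and no Cre. The TRa_mKO group held 3 libraries of Myf5-Cre; Thra fl/fl mice, in which Cre is driven by Myf5, a gene switched on in the muscle lineage before birth. Both groups therefore shared the floxed alleles, and only TRa_mKO carried Cre, so an effect of the receptor's loss and an effect of Cre cannot be told apart. Neither group received a drug or a special diet. The comparison asks how muscle messenger RNA differs when the receptor gene is recombined in the muscle lineage. Whole muscle was measured, so for any transcript a smaller share of the cells that make it and less of it per cell cannot be told apart.

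A ribosome is built from ribosomal RNA and a fixed set of proteins, most of them present once in each particle. In mammals nearly all messenger RNAs of these proteins start with a run of pyrimidines, the TOP motif, through which the kinase mTORC1 controls their translation. Levels of these messages are known to move together as a set. Much of the control acts on translation, which messenger RNA levels do not show. Skeletal muscle is known for a paralog of its own, Rpl3l, which is restricted to striated muscle and stands in for Rpl3. Muscle mass depends on the balance of protein synthesis and breakdown, so ribosome content is a usual question in muscle that wastes.

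To show the start-site feature for which these genes are known, promoter stretches from RefSeq (build GRCm38.p6) are printed for 7 of them, each with 75 bases before and 25 bases from the start. Capitals mark matches to 5 short motifs searched on both strands: CTTTCC, a pyrimidine run, CCGGAAG, a core of ETS factor sites, AAGATGGC, a core of YY1 sites, the GC box GGGCGG and the TATA box TATAAA. Rpl28, Rpl38, Rpl35 and Rpl15 are shown as genes with CTTTCC at the start, and Rpl22, Rpl22l1 and Rpl3l because results below turn on them. The stretches lie at chr7:4792890-4792989 (plus strand) for Rpl28, chr11:114668505-114668604 (plus) for Rpl38, chr2:39005107-39005206 (minus) for Rpl35 and chr14:18270962-18271061 (minus) for Rpl15. Those of Rpl22, Rpl22l1 and Rpl3l lie at chr4:152325651-152325750, chr3:28805433-28805532 and chr17:24727751-24727850, all on the plus strand.
Rpl28: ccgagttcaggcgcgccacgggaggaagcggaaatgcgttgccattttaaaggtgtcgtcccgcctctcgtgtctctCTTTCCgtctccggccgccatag
Rpl38: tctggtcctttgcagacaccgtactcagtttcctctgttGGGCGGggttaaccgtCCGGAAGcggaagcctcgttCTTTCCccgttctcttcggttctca
Rpl35: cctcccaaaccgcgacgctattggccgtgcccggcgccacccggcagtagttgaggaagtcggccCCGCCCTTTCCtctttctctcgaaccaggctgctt
Rpl15: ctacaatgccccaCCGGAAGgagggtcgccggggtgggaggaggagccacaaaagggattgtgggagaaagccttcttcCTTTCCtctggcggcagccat
Rpl22: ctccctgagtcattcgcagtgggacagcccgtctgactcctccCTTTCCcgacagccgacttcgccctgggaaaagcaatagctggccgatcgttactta
Rpl22l1: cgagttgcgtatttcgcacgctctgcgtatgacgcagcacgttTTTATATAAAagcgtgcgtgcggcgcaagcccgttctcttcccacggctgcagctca
Rpl3l: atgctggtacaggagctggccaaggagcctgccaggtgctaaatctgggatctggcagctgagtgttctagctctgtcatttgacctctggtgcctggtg
In Rpl35 the CTTTCC overlaps a GC box read on the other strand, and in Rpl22l1 TATAAA matches both strands in overlapping letters.

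A promoter stretch of 300 bases (250 before and 50 after the start) was listed for 62 of the 81 genes. On the sense strand, CTTTCC lay between 10 bases before and 16 bases after the start in 8 of the 62 (12.9%), against 0.994% of the 10360 other tested genes and 1.07% of all 27025 promoters. The 8 were Rpl13a, Rpl15, Rpl18, Rpl28, Rpl35, Rpl38, Rps10 and Rps27. Only this exact run was searched, at the first listed start of each gene. Other pyrimidine runs at the start were not counted, so the 12.9% is not the share of genes with a TOP motif. Over the whole stretch and both strands, CTTTCC was found in 45.2% of the ribosomal protein promoters and in 26.1% of the other tested genes (26.3% of all). The ETS core CCGGAAG was found in 35.5% against 17.5% (9.12% of all), and the YY1 core AAGATGGC in 8.06% against 4.58% (2.88% of all). The GC box was found in 58.1% against 63.7% (35.9% of all) and TATAAA in 9.68% against 7.32% (14.2% of all). These are matches of letters and not measured binding, and no test was run on them. Rpl22 carried its CTTTCC before the start. The stretch printed for Rpl22l1 had no CTTTCC, but it held another pyrimidine run, ttctcttccc, just after the start.

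The 6 libraries held 12390527 to 14488500 counts, with 15467 to 15707 genes above 0, and all were given batch 1 by the labels. Skeletal muscle fibre markers summed to 117283 to 160943 CPM (counts scaled to library size with TMM factors), the most of any marker list. Thra had 78.8, 92.8 and 96.8 CPM in WT and 129, 118 and 101 in TRa_mKO, a log2 difference of 0.37 that missed the test (edgeR adjusted p = 0.117), so it was not lower in the libraries labelled TRa_mKO. A count over the whole gene does not read the floxed part, so it checks neither the deletion nor the labels. Counts of libraries of the same genotype differed by more than sampling noise, with a chi-square per degree of freedom of 7.77 to 18.9 over all genes, so none was within that noise of another of its genotype. Each was counted as its own sample because the labels list it as one.

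None of the 81 ribosomal protein genes passed the test between TRa_mKO and WT, where 547 of 13118 tested genes did (4.17%). The test was edgeR's quasi-likelihood test, with Benjamini-Hochberg adjusted p below 0.05 over all tested genes. In the higher direction 2.52% of tested genes passed and in the lower direction 1.65%, and among the ribosomal protein genes 0 passed in each. Only Rpl22l1 had an unadjusted p below 0.05, against 17.9% of all tested genes. DESeq2 called that gene and no other of the 81 (5.45% of its tested genes), and limma-voom called 0 (3.93%). The smallest adjusted p by edgeR was 0.201.

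The log2 differences of TRa_mKO over WT were close to 0. Their median was 0.0044 (-0.00032 over all tested genes) and their range was -0.67 to 0.32, with 42 above and 39 below 0. The middle of the distribution, between its quartiles, ran from -0.037 to 0.043, where that of all tested genes ran from -0.14 to 0.14. For 79 of the 81 (97.5%) the difference was under 0.2 in size, against 63.7% of all tested genes and 72.3% of the 2983 genes at least as abundant as the least abundant standard ribosomal protein. The 95% confidence interval of the difference stayed within 1.5-fold either way for 77 of the 81 (95.1%), against 66.1% of all tested genes and 83.8% of those 2983. The exceptions were Rpl22l1, Rpl38, Rpl32l and Rpl37rt. The median standard error was 0.12, and 0.10 in those 2983. Rps15, with a log2 difference near 0 and a standard error of 0.12, had an interval from 0.84-fold to 1.20-fold. Changes inside such an interval in any 1 gene could not be detected at this depth and number of mice. The 73 standard proteins ran from -0.16 to 0.19, with a median of 0.0053 and a smallest adjusted p of 0.420.

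**Figure D1:**
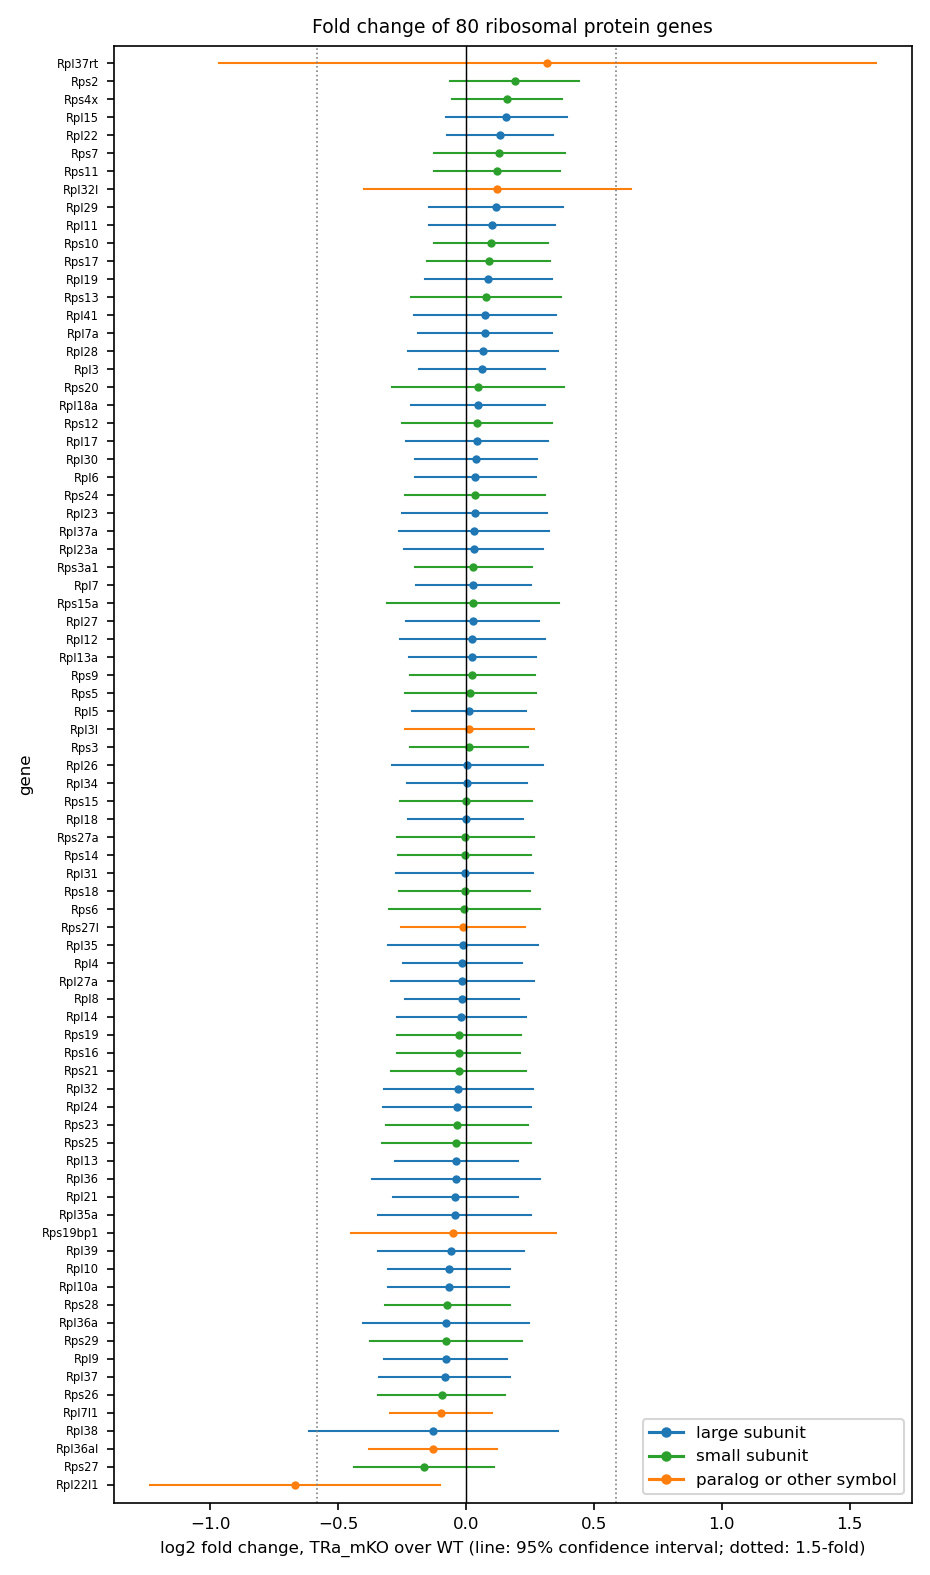
Log2 difference of TRa_mKO over WT (horizontal axis) for 80 of the 81 ribosomal protein genes (vertical axis), with points at the edgeR estimate, bars for the 95% confidence interval, colours for large subunit, small subunit and paralogs, and dotted lines at 1.5-fold. The points lie around 0, and Rpl22l1 at -0.67 is the lowest.

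As a whole, ribosomal protein messages made up 2.14, 2.07 and 1.82% of the counts of the WT libraries and 1.88, 1.92 and 2.13% of those of the TRa_mKO libraries. Summed after scaling, they reached 20794, 21530 and 17185 CPM in WT (19836 ± 2326, SD, n = 3) and 19970, 19219 and 21182 CPM in TRa_mKO (20124 ± 990, SD, n = 3). The genotypes overlapped, and their means stood at a ratio of 1.01. Large-subunit symbols summed to 11642 ± 1398 CPM in WT and 11689 ± 512 in TRa_mKO (SD, n = 3 each), and small-subunit symbols to 8195 ± 928 and 8434 ± 482 (SD, n = 3 each). The ratio of the large to the small sum was 1.42, 1.43 and 1.41 in WT and 1.38, 1.41 and 1.37 in TRa_mKO, and the genotypes overlapped here as well. The median log2 difference was 0.0053 for large-subunit symbols and -0.0015 for small-subunit symbols.

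Among the small-subunit proteins, Rps2, which sits at the mRNA entry side of the particle, had the most counts of all 81 genes. Rps2 reached 997, 954 and 851 CPM in WT and 1103, 991 and 1105 in TRa_mKO. The lowest TRa_mKO library lay just under the highest WT library, and the log2 difference of 0.19 (SE 0.11, interval -0.06 to 0.44) did not pass (edgeR adjusted p = 0.420). Rps4x, an X-linked protein of the small subunit, had 374, 391 and 360 CPM in WT and 413, 403 and 440 in TRa_mKO. It alone of the 81 genes had genotypes that did not overlap (2 did with scaling to library size alone), where 23.2% of all tested genes did not (13.2% with TRa_mKO higher, 10.1% lower). Its log2 difference of 0.16 did not pass either (edgeR adjusted p = 0.429). Rps3a1, another small-subunit protein, had 515, 517 and 472 CPM in WT against 529, 475 and 530 in TRa_mKO. Rps24, which is needed for maturation of the small-subunit ribosomal RNA, had 463, 487 and 370 against 431, 443 and 478. Both overlapped between the genotypes, with log2 differences of 0.03 each. Rps27, a zinc-finger protein, had the lowest log2 difference of the standard set, with 127, 128 and 95.1 CPM in WT and 112, 99.3 and 101 in TRa_mKO (log2 difference -0.16, edgeR adjusted p = 0.534). Rps6, the classical substrate of the S6 kinases, had 367 ± 52.2 CPM in WT and 365 ± 41.9 in TRa_mKO (SD, n = 3 each).

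Among the large-subunit proteins, Rpl4, which lines the exit tunnel, had 577, 613 and 528 CPM in WT and 589, 543 and 568 in TRa_mKO. Rpl23a, at the mouth of that tunnel, had 470, 486 and 379 against 450, 425 and 487. The genotypes overlapped for both, with log2 differences of -0.01 and 0.03. Rpl15 had 294, 306 and 250 CPM in WT and 323, 301 and 324 in TRa_mKO. Its WT replicate 2 reached above the lowest TRa_mKO library, and the log2 difference of 0.16 did not pass (edgeR adjusted p = 0.488). Rpl5 and Rpl11, which bind the p53 regulator Mdm2 together with 5S RNA when ribosome assembly fails, had 347 ± 26.9 and 183 ± 22.1 CPM in WT against 350 ± 10.4 and 196 ± 11.3 in TRa_mKO (SD, n = 3 each). Rpl38 had the widest interval of the standard set, -0.62 to 0.36 on the log2 scale, with 66.7, 78.2 and 41.7 CPM in WT and 52.1, 60.7 and 57.8 in TRa_mKO. Its spread was set by WT replicates 2 and 3, which held its highest and its lowest value.

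Rpl22l1 (gene identifier 68028) had the largest difference of the set. Rpl22l1 is a paralog of Rpl22, and in mice the Rpl22 protein is known to hold its expression down. It had 105, 128 and 76.3 CPM in WT and 85.7, 55.0 and 53.8 in TRa_mKO. WT replicates 1 and 2 were the highest and TRa_mKO replicates 2 and 3 the lowest, while WT replicate 3 lay under TRa_mKO replicate 1. The log2 difference was -0.67 (SE 0.24, interval -1.24 to -0.10, n = 3 each), and it missed the threshold by edgeR (unadjusted p = 0.026, adjusted p = 0.201). DESeq2 gave the same size and an adjusted p of 0.0217. Over all alternative fits the adjusted p ran from 0.0217 to 0.590, and the log2 difference from -0.92 to -0.49. Rpl22 (gene identifier 19934) had 119, 123 and 106 CPM in WT and 122, 124 and 134 in TRa_mKO, with overlap and a log2 difference of 0.13 (edgeR adjusted p = 0.510).

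Within a library, the ratio of Rpl22l1 to Rpl22 counts was 0.890, 1.04 and 0.722 in WT and 0.701, 0.445 and 0.402 in TRa_mKO. The genotypes did not overlap in this ratio, which was on average 1.75-fold higher in WT, a log2 difference of -0.81 in TRa_mKO. The exact two-sided permutation test gave p = 0.1, the smallest value that 3 libraries against 3 allow, and 0.5 after adjustment over the 5 paralog pairs compared. Rpl22l1 made up 46.7 ± 4.56% of the counts of the pair in WT and 33.6 ± 6.71% in TRa_mKO (SD, n = 3 each). Per kilobase of the annotated transcript (552 bases for Rpl22l1 and 2051 for Rpl22), these shares were 76.4% and 64.8%. Which transcript the muscle expressed was not measured, and the shares per kilobase depend on that choice.

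Rpl3l (gene identifier 66211), the striated-muscle paralog, had more counts than any other large-subunit symbol except Rpl4. It had 582, 576 and 494 CPM in WT and 602, 518 and 545 in TRa_mKO, with a log2 difference of 0.01 (SE 0.11, edgeR adjusted p = 0.975). Rpl3 (gene identifier 27367), the standard protein near the peptidyl transferase centre, had 119, 109 and 118 against 102, 124 and 135 CPM (log2 difference 0.06, edgeR adjusted p = 0.833). Both overlapped between the genotypes. Rpl3l made up 83.0, 84.1 and 80.8% of the counts of the pair in WT and 85.5, 80.7 and 80.2% in TRa_mKO. Per kilobase of transcript, Rpl3l stood at 402 and Rpl3 at 87.2 CPM per kb over all 6 libraries, so the paralog was the more abundant message in both genotypes. The log2 difference of their ratio was -0.04 (exact two-sided permutation p = 0.8, adjusted over the 5 pairs 0.8), and leaving out each library in turn moved it between -0.21 and 0.05, on both sides of 0.

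**Figure D2:**
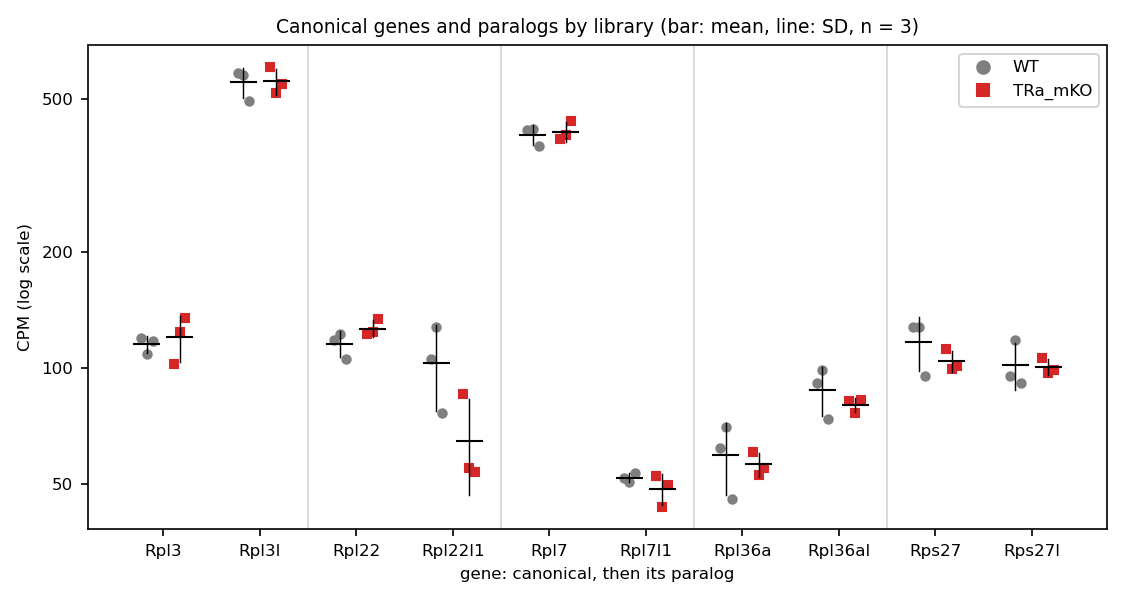
CPM (vertical axis, log scale) of the standard gene and its paralog for the 5 pairs (horizontal axis), with grey circles for the WT and red squares for the TRa_mKO libraries, bars at the mean and lines for the SD (n = 3). Rpl3l stands above Rpl3 in every library, and Rpl22l1 has its 2 lowest values in TRa_mKO.

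The other 3 pairs differed less between the genotypes than Rpl22l1 and Rpl22. Rpl7l1, a nucleolar relative of Rpl7, had 51.9, 50.7 and 53.4 CPM in WT and 52.5, 43.6 and 49.6 in TRa_mKO, beside 414, 417 and 376 against 392, 402 and 437 for Rpl7. Rpl36al, a close copy of Rpl36a, had 91.4, 98.8 and 73.5 against 81.9, 76.3 and 82.7 CPM, beside 62.1, 70.5 and 45.8 against 60.7, 52.9 and 55.1 for Rpl36a. Rps27l, a p53 target related to Rps27, had 95.6, 118 and 91.5 against 106, 96.9 and 99.0 CPM. All of these overlapped between the genotypes. The log2 ratio to the standard partner differed by -0.13 for Rpl7l1, -0.06 for Rpl36al and 0.15 for Rps27l, with exact two-sided permutation p-values of 0.4, 0.5 and 0.2 (adjusted 0.625, 0.625 and 0.5). Near-identical copies such as Rpl36a and Rpl36al can exchange reads, and ribosomal protein genes have many processed pseudogenes in the genome, so their levels are uncertain to that extent.

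At the low end of the set, Rpl37rt had a mean count of 16.99 and Rpl32l of 38.5, while Rpl39l with 1.83 and Rps23rg1 with 0.34 fell below the minimum of 10. Rpl37rt had 2.17, 0.387 and 0.792 CPM in WT and 0.805, 2.02 and 1.38 in TRa_mKO. Its log2 difference of 0.32 carried a standard error of 0.57 and turned negative without WT replicate 2 (-0.07) and without TRa_mKO replicate 2 (-0.03). Rpl32l had 2.77, 2.87 and 2.51 against 2.20, 3.63 and 3.04 CPM, again with overlap.

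Non-whole counts were found in a part of these genes. Of the 81, 59 had whole counts in every library, 22 had a fractional count in at least 1 library and 9 had one in all 6, Rps2, Rpl31, Rpl37 and Rpl37rt among them. The fractional part was largest for Rpl37rt, at 2.90% of its counts, followed by Rpl37 with 0.0291% and Rpl31 with 0.0262%. By its definition this part is under 1 count in a library, so its percentage falls as the count rises. It does not show how many reads a non-whole count involves. Rpl37 had 140, 145 and 110 CPM in WT and 125, 118 and 130 in TRa_mKO, and Rpl31 had 272, 267 and 204 against 244, 244 and 251, both with overlap. The median log2 difference was 0.0053 for the 59 genes with whole counts and -0.00038 for the 22 others.

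A pattern common to the set lay between libraries. WT replicate 3 held the lowest CPM of the 6 libraries for 70 of the 73 standard ribosomal proteins (95.9%), where it did so for 16.9% of all tested genes. The exceptions were Rps3 and Rps26, lowest in TRa_mKO replicate 2, and Rpl3, lowest in TRa_mKO replicate 1. The highest library was WT replicate 2 for 40, TRa_mKO replicate 3 for 24, WT replicate 1 for 8 and TRa_mKO replicate 1 for 1. The median log2 deviation of the 73 from their own means was 0.06, 0.12 and -0.23 in the WT libraries and -0.02, -0.05 and 0.10 in the TRa_mKO libraries. That of all tested genes stayed between -0.0014 and 0.0081.

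**Figure D3:**
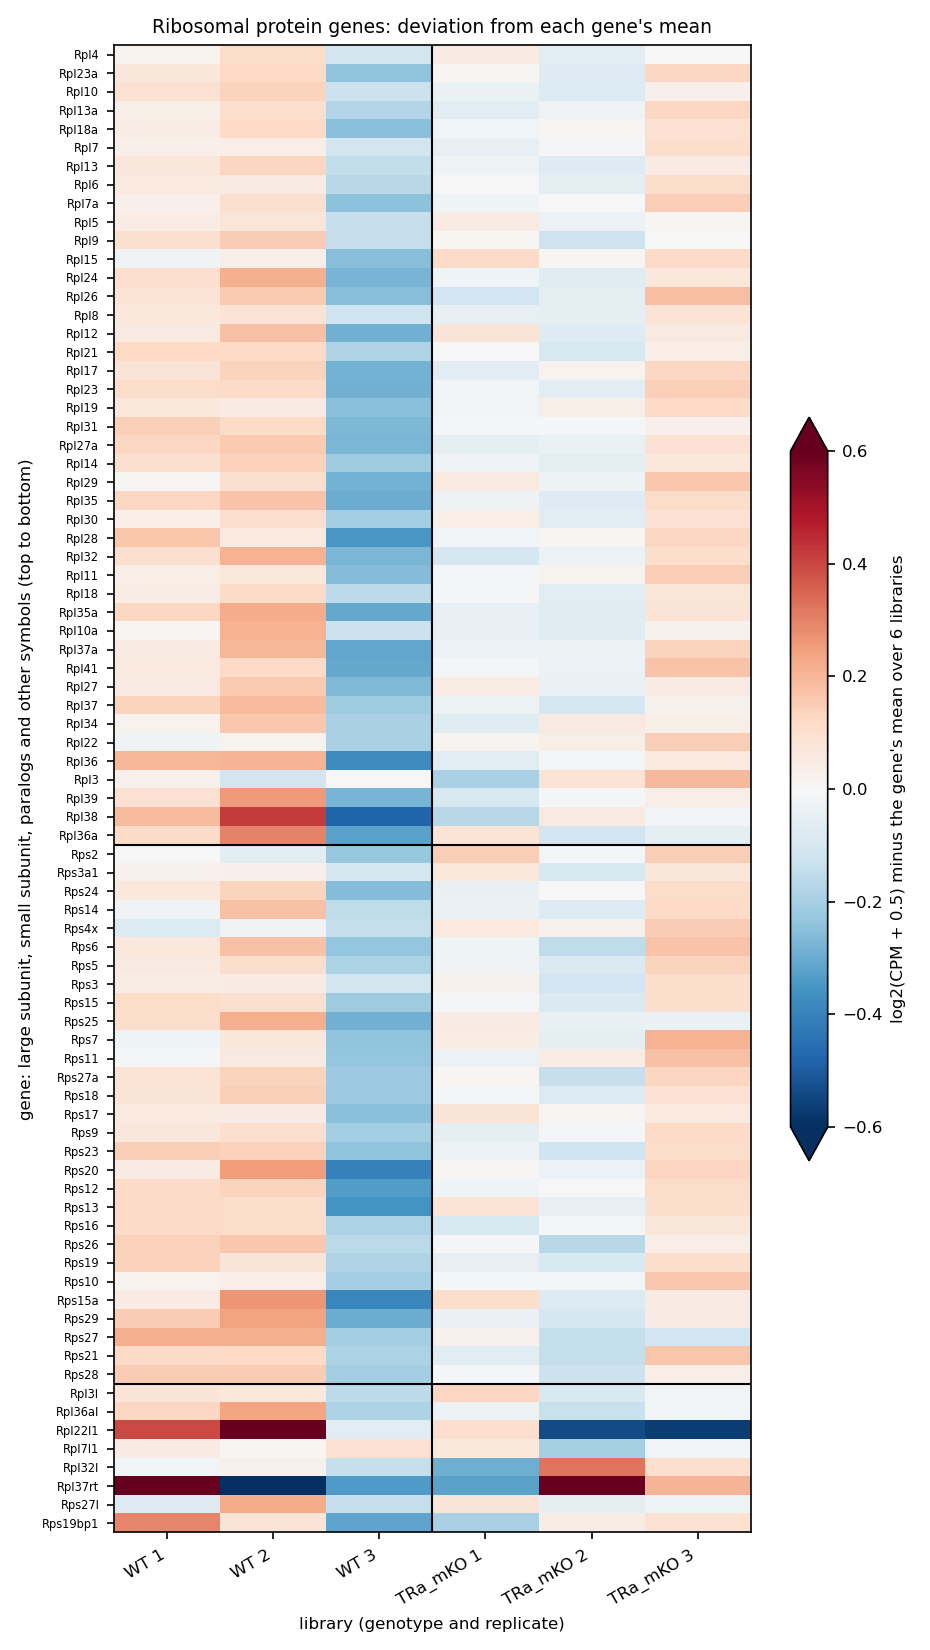
Log2 deviation of 80 of the 81 ribosomal protein genes (rows) from its own mean over the 6 libraries (columns), as colour, on the log2(CPM + 0.5) scale. The column of WT replicate 3 is low for nearly every gene, and those of WT replicate 2 and TRa_mKO replicate 3 are mostly high.

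Across the 6 libraries the standard proteins moved together. The median correlation between any 2 of them was 0.871, with 98.7% of the pairs above 0, against 0.0508 and 53.2% for the 2983 genes of like or higher abundance. The 6 points share their libraries, so this is a description of these libraries. It was shared in part by other short transcripts. The median transcript length of the ribosomal protein genes was 860 bases, against 3059 for all tested genes. For 163 other genes of like abundance with transcripts under 1000 bases, the median log2 deviation in WT replicate 3 was -0.24 and the median correlation 0.512, and 70.6% of them were lowest there. For 552 genes of 1000 to 2000 bases the deviation in that library was -0.07, and for 2168 genes of at least 2000 bases it was 0.03. After correction of the counts for GC content and transcript length, the deviation of the standard proteins there was -0.09, with 40 of 73 lowest in it and a median correlation of 0.473. What sets the level of this library was not tested.

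**Figure D4:**
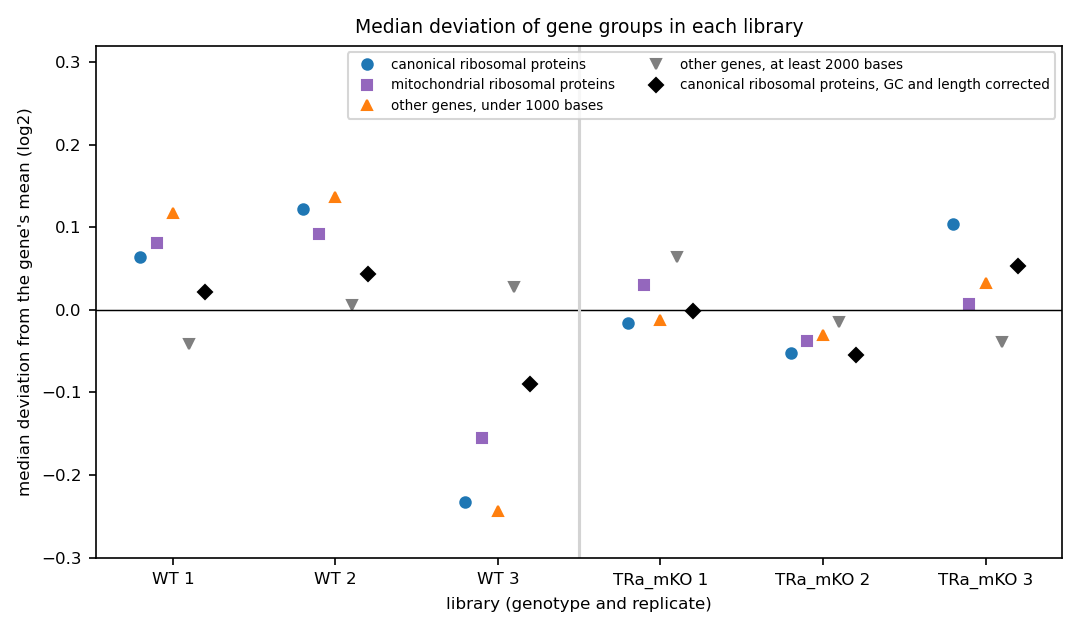
Median log2 deviation from each gene's own mean (vertical axis) in the 6 libraries (horizontal axis) for the standard ribosomal proteins and the gene sets compared with them. In WT replicate 3 the standard proteins stand at -0.23 and other genes with transcripts under 1000 bases at -0.24.

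This library carries weight in the genotype comparison. Without WT replicate 3, the median log2 difference of the 81 genes was -0.09 and 12 of 81 were above 0, and without WT replicate 2 it was 0.07 with 70 above 0. No ribosomal protein gene passed in either fit (edgeR), and the smallest adjusted p was 0.106 and 0.382. Erythrocyte markers summed to 1763, 590 and 458 CPM in WT and 710, 917 and 1621 in TRa_mKO, highest in WT replicate 1 and TRa_mKO replicate 3. Without those libraries the median log2 difference of the ribosomal protein genes was -0.00044, with 0 called.

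The 7 proteins of the cytosolic ribosome or bound to it whose symbols fall outside the naming rule showed 0 calls by edgeR, DESeq2 and limma-voom, with 0 at an unadjusted p below 0.05. Rplp0, the base of the acidic stalk of the large subunit, had 658, 651 and 596 CPM in WT and 729, 676 and 795 in TRa_mKO. These did not overlap, and the log2 difference of 0.21 (SE 0.11) did not pass (edgeR adjusted p = 0.360). The stalk proteins Rplp1 and Rplp2, Fau, Rpsa and Rack1 lay between -0.06 and 0.02. The 78 proteins of the mitochondrial ribosome, a separate particle, had 0 calls by edgeR, DESeq2 and limma-voom, 2 genes at an unadjusted p below 0.05 and a median of -0.02. They summed to 3947 ± 390 CPM in WT and 3919 ± 111 in TRa_mKO (SD, n = 3 each). WT replicate 3 was lowest for 51 of those 78.

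Genes that make or drive ribosomes were read from fixed lists. Of 57 tested genes of ribosome biogenesis and RNA polymerase I, 0 were called by edgeR, DESeq2 and limma-voom and 11 had an unadjusted p below 0.05, a share near the 17.9% of all tested genes, with a median log2 difference of -0.06. The smallest p belonged to Gnl3, the nucleolar GTPase nucleostemin, with 31.2, 33.1 and 32.9 CPM in WT and 26.6, 27.0 and 24.6 in TRa_mKO. Its genotypes did not overlap, and its log2 difference of -0.31 (SE 0.08) missed the threshold (edgeR adjusted p = 0.070). Its relative Gnl3l had 41.5 ± 3.74 CPM in WT and 33.5 ± 1.37 in TRa_mKO (SD, n = 3 each, edgeR adjusted p = 0.094). Among 21 translation factors with TOP messages, 0 were called by the 3 tools and 1 had an unadjusted p below 0.05, with a median of 0.03. Naca, a subunit of the nascent chain complex, had 590 ± 45.6 CPM in WT and 726 ± 76.0 in TRa_mKO, and Eef1g, an elongation factor subunit, 430 ± 43.8 and 364 ± 23.1 (SD, n = 3 each, edgeR adjusted p = 0.213 and 0.288).

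Of 38 tested genes of mTORC1, the S6 kinases and translation control, 1 was called higher and 0 lower by edgeR, with 5 at an unadjusted p below 0.05 and a median of 0.07. Of all tested genes, 2.52% were called higher and 17.9% had an unadjusted p below 0.05, so the shares of the list lay near the first and below the second. Rps6kc1, which encodes an S6 kinase-like protein, rose from 18.5, 20.3 and 20.1 CPM in WT to 32.4, 28.5 and 28.2 in TRa_mKO. All TRa_mKO libraries lay above all WT libraries, a 1.51-fold higher level (log2 difference 0.60, SE 0.10, n = 3 each, edgeR adjusted p = 0.00795). It passed in every alternative fit, with adjusted p between 0.00125 and 0.0495. Rps6ka6, of the RSK kinase family, was low, at 0.208 ± 0.167 CPM in WT and 0.999 ± 0.261 in TRa_mKO (SD, n = 3 each), and missed the threshold (edgeR adjusted p = 0.052). DESeq2 and limma-voom each called 2 genes of this list, where they called 5.45% and 3.93% of their tested genes. Of 10 tested genes of the network around MYC, a driver of ribosomal protein transcription, 0 were called by the 3 tools. An unadjusted p below 0.05 was found for 3 of them, against 17.9% of all tested genes. Myc itself had 8.98, 5.81 and 10.7 CPM in WT and 5.35, 5.16 and 6.71 in TRa_mKO, with overlap (edgeR adjusted p = 0.208), and Mlxip, a partner of Mlx, had 90.1 ± 14.8 and 121 ± 13.1 (SD, n = 3 each, edgeR adjusted p = 0.109). Of 14 genes of p53 and ribosome surveillance, edgeR and limma-voom called 0 and DESeq2 called 1, with 0 at an unadjusted edgeR p below 0.05. That gene was Cdkn1a, the p53 target p21, with 27.1, 29.9 and 46.2 CPM in WT and 44.4, 79.9 and 46.6 in TRa_mKO (edgeR adjusted p = 0.286, DESeq2 adjusted p = 0.0359).

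Markers of other cells in the muscle were read beside these results. By edgeR, 0 genes were called among 5 tested markers of erythrocytes, 11 of leukocytes, 8 of fibroblasts, 7 of endothelium, 5 of adipocytes and 6 of Schwann cells, with 0, 1, 1, 4, 0 and 1 at an unadjusted p below 0.05. Of all tested genes, 17.9% had such a p, a share that the endothelial list exceeded. The median log2 differences of these lists were, in the same order, 0.21, -0.06, 0.05, -0.34, -0.07 and -0.58. All Schwann cell markers had a lower fitted level in TRa_mKO, from -0.84 to -0.51, although WT replicate 2 had the lowest sum of these markers. DESeq2 called 1 fibroblast and 1 endothelial marker and limma-voom called 0 in these lists. Of 6 satellite cell markers, 2 had an unadjusted p below 0.05 and 1 was called higher by edgeR. Among all tested genes, 2.52% were called higher. The called marker was Pax7, at 6.84 ± 0.85 CPM in WT and 10.8 ± 0.36 in TRa_mKO (SD, n = 3 each, edgeR adjusted p = 0.026). DESeq2 called 2 of the 6 and limma-voom 1, where they called 5.45% and 3.93% of their tested genes. The other by DESeq2 was Calcr, at 2.69 ± 0.64 CPM in WT and 5.33 ± 1.63 in TRa_mKO without overlap (SD, n = 3 each), which missed the threshold by edgeR (adjusted p = 0.076). The edgeR call of Pax7 was lost without WT replicate 1 or 3 or any 1 of the TRa_mKO replicates (adjusted p between 0.0527 and 0.0916), with both libraries rich in haemoglobin left out (0.168) and with the replicate number as a block (0.0631). Of 10 skeletal muscle fibre markers, edgeR and limma-voom called 0 and DESeq2 called 1, with 2 at an unadjusted edgeR p below 0.05. Their log2 differences ran from -0.20 to 0.46, with a median of 0.16. Endothelial markers summed to 928 to 1153 CPM in WT and 691 to 951 in TRa_mKO. Schwann cell markers summed to 1238, 301 and 1201 CPM in WT and to 475, 564 and 654 in TRa_mKO. The part of these cells in the ribosomal protein values was not tested.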

How the data were processed

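RNA-seq of polyadenylated RNA was made from 3 WT and 3 TRa_mKO muscles, with stranded libraries and paired-end sequencing per the labels' protocols. Trimmomatic 0.39, featureCounts, FastQC 0.11.9 and MultiQC 1.12 are listed in the submitters' processing notes. Aligner, annotation and counting strand were not given in the sources used here. Estimated counts per gene were deposited by the authors in 1 table, whose headers call them read counts, and 9.65 to 10.0% of a library's values were not whole. The table listed 74693 features, 17034 of them with values, and the values were rounded before testing. Genes were kept by filterByExpr (minimum count 10), scaled by TMM and tested with edgeR 4.0.16 in R 4.3.3 (quasi-likelihood, robust, two-sided, genotype as the factor). Intervals are 95% intervals of the fitted log2 difference. DESeq2 1.42.0 and limma 3.58.1 served as alternatives, beside other scalings, filters and left-out libraries. GENCODE M21 gave transcript lengths and GC content, for all 81 genes, from the longest principal transcript of a gene where any was marked as principal. Paralog ratios were tested by exact two-sided permutation in scipy 1.17.1. The genotype test was tried on 3 simulated sets of all 13118 genes with 200 made to change. It found 56.7% of 1.5-fold changes and 85.3% of 2-fold changes with 3.41% false calls. The changed genes were drawn from all tested genes, with a median of 21.8 CPM against 240 for the ribosomal protein genes. Genes were simulated independently of each other, so these rates do not describe the ribosomal protein genes. Genes named are the 3 with the largest and smallest differences and the smallest p in each direction, the 3 most abundant of each subunit, paralog pairs, genes nearest the count minimum, those with the largest fractional part, and from each list those that passed or up to 2 with the smallest p. Rps6, Rpl5, Rpl11 and Rpl38 were added for their roles or interval after their values were seen. Deviations by library were taken on log2(CPM + 0.5), and their split by transcript length and correction for GC content and length were chosen after WT replicate 3 was seen to be lowest. The genes and lists were chosen with earlier results of these data known. Each library is taken as a separate mouse, as the series' design gives 3 per genotype. The column headers carry a different number for each library, and no source used here says what it numbers. Some genes are not reported here by name; they stay in the fits and counts.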

Additional observations from a re-analysis of the deposited data

How the results depend on the processing

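The count of 0 called ribosomal protein genes held under every alternative scaling, filter, threshold, left-out library and treatment of fractional counts that was run; the DESeq2 test gave 1 (Rpl22l1). With library size only, 2 of the 81 had genotypes that did not overlap, against 1 with TMM. Library size only moved the median of all genes by -0.05 on the log2 scale. It turned the share of calls that were higher from 60.5% to 45.5% (213 higher, 255 lower). With the GC content and length correction this share was 73.2%. That correction was fitted on counts scaled to library size only, and TMM factors were then applied on top. The scaling between libraries thus entered in both steps, and the median of all genes there was 0.048. The 73.2% therefore does not measure an effect of GC content or length. The median log2 difference of the 81 ran from -0.09 without WT replicate 3 to 0.07 without WT replicate 2, and that of the summed CPM from -0.07 to 0.08 around 0.02. The log2 ratio of Rpl3l to Rpl3 ran from -0.21 to 0.055 over left-out libraries. Replicate numbers did not pair the libraries (correlations of deviations -0.178, -0.0044 and 0.0041). With a replicate block the median was 0.0091, 0 of the 81 and 357 of all genes were called, against 547. Leaving out WT replicate 2 gave 361 calls over all genes, WT replicate 3 310, TRa_mKO replicate 2 209, and both libraries rich in haemoglobin 267. Of 637 alternative values for 34 named genes, 586 kept direction and side of the threshold, 34 turned sign, 10 newly passed and 7, all of Pax7, no longer passed. Of the genes that turned, Rpl37rt (0.32) and Rpl32l (0.12) had the largest log2 differences with TMM, and both had low counts. With library size only, Rpl23a was -0.016, Rpl3l -0.039, Rpl7 -0.020, Rps24 -0.0096 and Rps3a1 -0.023. With the GC content and length correction, Rpl31 was 0.055, Rpl4 0.042 and Rps27l 0.047, near that fit's medians of 0.047 over the 81 and 0.048 over all genes. Rpl31 was 0.0038 by limma-voom, 0.0063 with the block and 0.053 with the libraries rich in haemoglobin left out, where Rpl3 was -0.00044. Over left-out libraries Rpl23a ran from -0.074 to 0.097, Rpl3 from -0.025 to 0.17, Rpl31 from -0.13 to 0.059, Rpl32l from -0.054 to 0.30, Rpl36a from -0.24 to 0.063, Rpl37rt from -0.067 to 1.19, Rpl3l from -0.061 to 0.050, Rpl4 from -0.071 to 0.038, Rpl7 from -0.020 to 0.060, Rps24 from -0.076 to 0.11, Rps27l from -0.083 to 0.11 and Rps3a1 from -0.014 to 0.069. Apart from the settings themselves, the cause was not tested. With 3 libraries a genotype, differences under the interval of each gene could not be detected.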
